A study of Mus musculus with 2 samples.

Results

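Broad Gata3 read domains are stretches of the mouse genome that were covered by anti-Gata3 ChIP-seq reads without a break over 1600 bp or more. Chromosomes 1 to 19 of GRCm38 were divided into 12313737 bins of 200 bp, and the 5′ end of each read was moved 100 bp towards its 3′ end before it was counted. A domain is a run of touching bins, each of them at least 5-fold over the mean per bin in both replicates. Of all bins 83462 (0.678%) passed, in 35595 runs, and 531 runs (1.49%) were long enough to be domains. More than 50% of the bases were repeat-masked in 1 domain (0.188%), which is set apart, and in the other 530 they were not. The share of mostly masked runs was 2.55% over all runs and 0.198% over those of 1400 bp, just under the minimum length. Because the members were chosen by their reads, their length and height are given as a description and were not tested.

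Chromatin of TH2 cells, expanded *in vitro* from mouse spleen, was sheared, immunoprecipitated with an anti-GATA3 antibody (clone D13C9) and tagged on the beads by a transposase that adds the sequencing adaptors (ChIPmentation). The 2 libraries are numbered as replicates 1 and 2 of the same condition, and nothing says whether they came from separate mice or cultures. The extraction protocol in the labels names ILC2, whereas the other fields and the paper name TH2 cells. Strain, genotype, age and treatment of the mice are not given in the labels, and a control library without the antibody was not used here. The mice of the study were on the C57BL/6 background according to its methods. Replicate 1 had 40526613 reads and replicate 2 had 24970952, with 39287837 and 24084150 of them on the chromosomes that were tiled. These depths gave a mean of 3.19 and 1.96 reads per bin, so that a bin needed at least 16 reads in replicate 1 and 10 reads in replicate 2 to pass.

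Gata3 is a zinc finger transcription factor that is required for T cell development in the thymus and again for the differentiation of TH2 cells, where it acts at the locus of the type-2 cytokines IL-4, IL-5 and IL-13. GATA factors recognise the sequence WGATAR, in which W stands for A or T and R for A or G, on either strand. Zfpm1, also called FOG1, is a cofactor that binds GATA proteins, and AP-1 factors are induced when T cells are activated. A factor bound at a single site gives a narrow peak of reads, and without a control library reads from bound and from merely open chromatin cannot be told apart.

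The sequences below are the highest 200-bp bins of 6 domains, where the highest bin is the one with the highest fold in its lower replicate, and other bins can be higher in a single replicate. They are shown because these domains are the longest outside regions of low mapping quality or lie at the type-2 cytokine genes. Capitals mark WGATAR, read on both strands, which also appears as its reverse complement. They were read from the RefSeq sequence of the same build.
*Cd4*, intron, chr6:124886601-124886800 (GRCm38, plus strand): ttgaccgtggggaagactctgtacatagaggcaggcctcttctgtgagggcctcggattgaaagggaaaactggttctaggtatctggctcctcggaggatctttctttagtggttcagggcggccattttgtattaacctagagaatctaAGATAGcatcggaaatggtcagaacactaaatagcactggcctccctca
*Il13*, upstream of the start site, chr11:53636201-53636400 (GRCm38, plus strand): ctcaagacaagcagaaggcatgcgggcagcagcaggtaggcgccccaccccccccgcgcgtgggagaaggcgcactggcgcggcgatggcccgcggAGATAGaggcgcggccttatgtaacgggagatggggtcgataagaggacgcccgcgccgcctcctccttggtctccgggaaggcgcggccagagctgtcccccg
*Il4*, upstream of the start site used and in an intron of a longer transcript, chr11:53617401-53617600 (GRCm38, plus strand): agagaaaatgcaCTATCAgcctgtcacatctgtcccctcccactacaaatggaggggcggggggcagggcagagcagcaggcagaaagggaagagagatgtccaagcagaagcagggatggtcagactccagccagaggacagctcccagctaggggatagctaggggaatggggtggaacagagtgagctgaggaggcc
*Zfpm1*, intron, chr8:122284401-122284600 (GRCm38, plus strand): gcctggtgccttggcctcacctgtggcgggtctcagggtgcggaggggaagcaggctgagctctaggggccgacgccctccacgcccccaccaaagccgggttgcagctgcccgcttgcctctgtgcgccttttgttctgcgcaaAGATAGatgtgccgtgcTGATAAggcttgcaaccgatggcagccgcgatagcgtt
*Znrf3*, intron, chr11:5295801-5296000 (GRCm38, plus strand): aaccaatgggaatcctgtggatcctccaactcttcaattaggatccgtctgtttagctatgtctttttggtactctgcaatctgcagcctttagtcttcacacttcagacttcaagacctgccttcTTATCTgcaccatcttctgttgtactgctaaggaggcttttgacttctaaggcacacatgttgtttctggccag
between genes, nearest start site *Klf6*, chr13:5769601-5769800 (GRCm38, plus strand): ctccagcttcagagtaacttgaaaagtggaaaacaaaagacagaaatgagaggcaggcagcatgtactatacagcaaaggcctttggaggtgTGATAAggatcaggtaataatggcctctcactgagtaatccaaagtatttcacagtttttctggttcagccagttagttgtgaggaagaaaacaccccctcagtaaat
The *Zfpm1* bin held 2 WGATAR and each of the others held 1. Reads in the *Cd4* bin numbered 171 in replicate 1 and 118 in replicate 2, which is 53.6-fold and 60.3-fold over the mean per bin. The *Il13* bin held 220 and 138 reads (69.0-fold and 70.6-fold), the *Il4* bin 175 and 89 reads (54.8-fold and 45.5-fold), and the *Zfpm1* bin 193 and 105 reads (60.5-fold and 53.7-fold). In the *Znrf3* bin there were 158 and 104 reads (49.5-fold and 53.2-fold), and in the bin far from *Klf6* 157 and 97 reads (49.2-fold and 49.6-fold).

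Domains were short for the most part. The median length was 1800 bp, 236 of the 531 had the minimum of 1600 bp, 175 were 2000 bp or longer, 20 reached 3000 bp and 6 were over 4000 bp. They covered 1014 kb, or 0.0412% of chromosomes 1 to 19, and held 6.07% of the bins that passed. Of the reads on these chromosomes they held 0.746% in replicate 1 and 0.767% in replicate 2. Among the 504 runs of 1400 bp, just outside the threshold, the mean height of the lower replicate was 6.13-fold to 33.5-fold over the mean per bin (median 16.6), and among the 236 runs of 1600 bp it was 6.46-fold to 33.0-fold (median 16.2). The highest just outside lay near *Stk40* (33.5-fold and 35.5-fold in replicates 1 and 2), *Ralgapb* (32.6-fold and 40.8-fold) and *Fignl1* (32.5-fold and 36.8-fold), and among the highest just inside were those in *Ikzf3* (33.0-fold and 35.1-fold) and in *Crybb1* (31.4-fold and 44.8-fold).

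**Figure D1:**
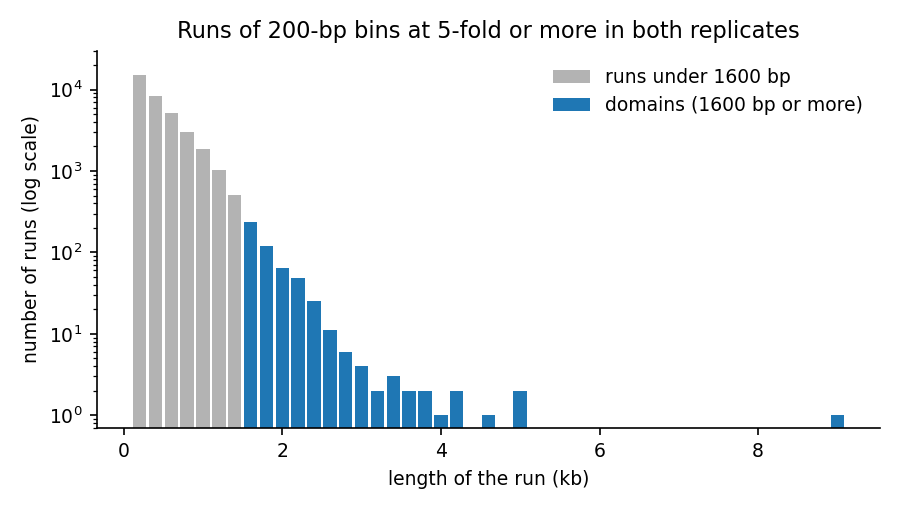
Number of runs of bins (log scale) by length in kb, with runs under 1600 bp in grey and the 531 domains in blue. The counts decline from 15206 runs of 200 bp to 236 of 1600 bp without a step, and the domain at *Cd4* stands alone at 9 kb.

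The height of the domains depended on what they were measured against. Taken over the mean of all bins, the median height was 17.7-fold in replicate 1 (range 6.90 to 54.8) and 17.3-fold in replicate 2 (range 6.02 to 44.8). Most of the domains lay in read-rich surroundings, where the mean of the 100 kb around them, their own reads included, was 2.06-fold (median, range 0.962 to 6.08) and 2.15-fold (median, range 0.859 to 5.84) over the mean of all bins. Over this 100-kb mean the domains stood 8.30-fold and 8.09-fold high (medians). When each bin had to be 5-fold over the higher of the 2 means, 44 domains were called, and they overlapped 44 of the 531.

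The longest domain, of 9000 bp, lay at *Cd4* (chr6:124879601-124888600), which encodes the co-receptor that defines helper T cells. It ran from 379 bp upstream of the start site to 8620 bp downstream of it, in a gene of 23530 bp on the minus strand. In the coding transcript this stretch takes in the first exon, the whole of the first intron and the second exon. Its 45 bins held 3827 reads in replicate 1 and 2886 in replicate 2, a mean of 26.7-fold and 32.8-fold, and their reads formed 4 summits, each of them with WGATAR. No bin fell below 9.40-fold in replicate 1 or 12.8-fold in replicate 2, whereas the median of the lowest bin over all domains was 5.96-fold and 6.14-fold. At its first base the reads rose from 9 to 93 per bin in replicate 1 and from 12 to 51 in replicate 2, and at its last base they dropped from 37 to 14 and from 25 to 10. Of its 40 WGATAR, 19 lay in sequence that is not repeat-masked, which was the highest such number in any domain. Over the 100-kb mean it was 6.15-fold and 6.77-fold high, and 1600 bp of it were kept under the local threshold. Over the 20 kb to either side, domains left out, the median bin was at 1.57-fold and 1.53-fold. The study used mice with Cre driven from *Cd4*. The labels do not give the genotype of the cells used here, but the names of the deposited data of both libraries carry a tag that reads like *Cd4*-Cre. The part of such a transgene in the length and height of this domain was not tested.

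Next in length came domains of several kinds, and 5 of the 10 longest had reads of lower mapping quality (described further on). Of those without, a domain of 5000 bp lay between genes (chr13:5767201-5772200), 89282 bp upstream of *Klf6*, a zinc finger transcription factor gene, with 1397 and 880 reads, 17.5-fold and 18-fold, and 17 WGATAR. In an intron of *Znrf3*, which encodes a ubiquitin ligase that restrains Wnt signalling, a domain of 4600 bp (chr11:5294401-5299000) held 1265 and 853 reads, 17.24-fold and 18.96-fold, with 8 WGATAR. *Zfpm1* held a domain of 3800 bp (chr8:122282401-122286200) that began 260 bp downstream of the start site, at the end of the first exon, and ran into the first intron. It had 2001 and 1104 reads, 33.0-fold and 29.7-fold, with 14 WGATAR, 13 of them outside repeats, and it was 10.4-fold and 10.2-fold over its 100-kb mean. A domain of 3600 bp near *Snx9* (chr17:5801401-5805000) held 869 and 585 reads, 15.1-fold and 16.6-fold, and lay in the non-coding gene *3300005D01Rik*. Domains of 3400 bp lay in *Mbnl1*, a splicing regulator (23.5-fold and 27.0-fold), in *Epm2aip1* (13.7-fold and 12.1-fold) and at *Il13*. Among these, *Zfpm1* was the highest in both replicates.

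**Figure D2:**
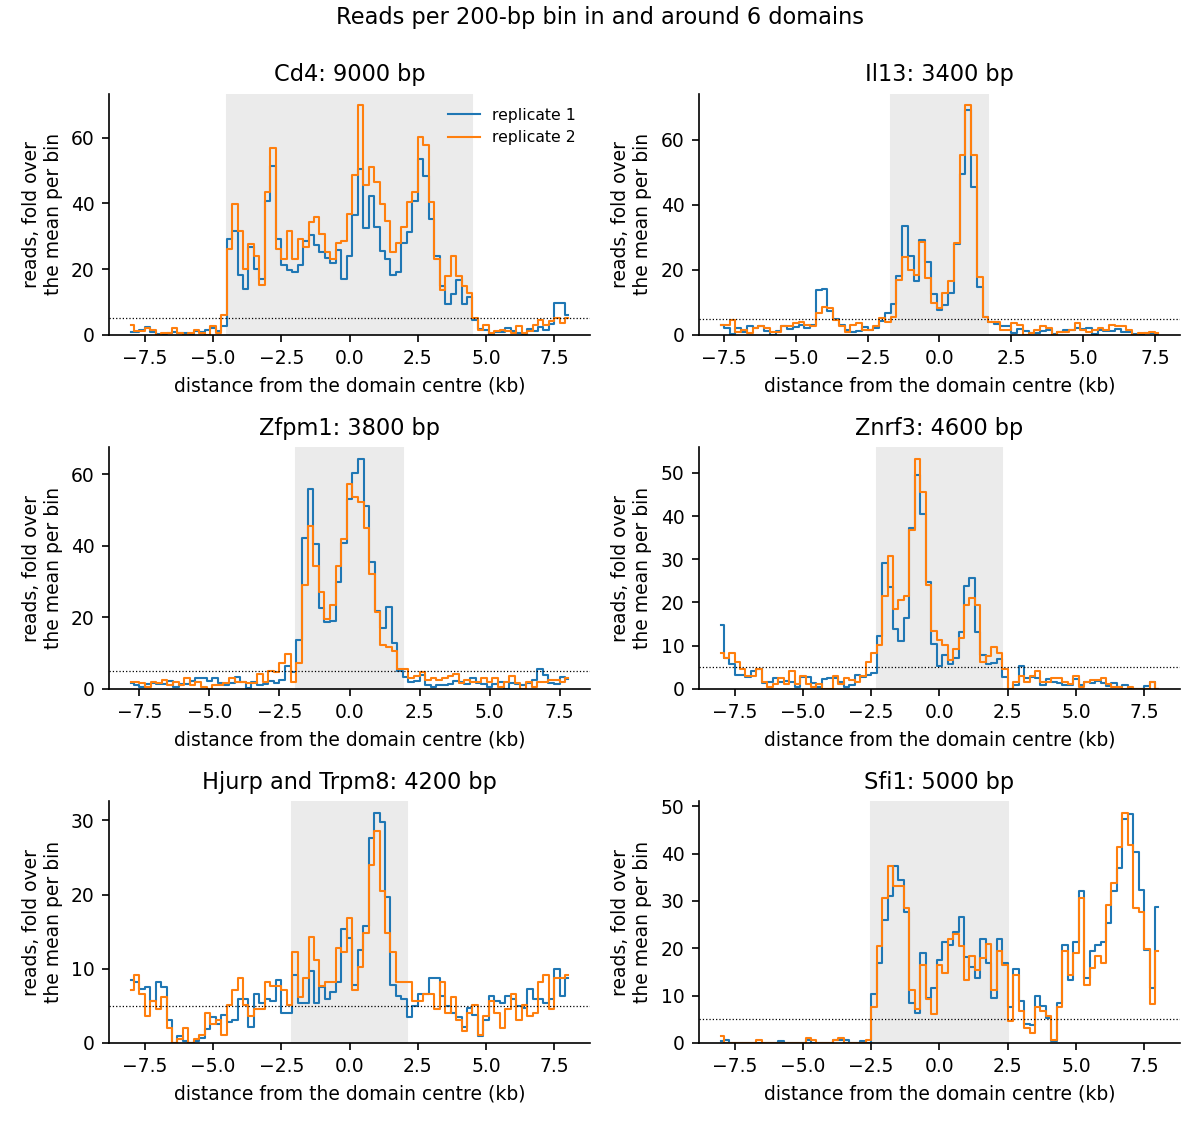
Reads per 200-bp bin, as fold over the mean per bin, against the distance from the domain centre in kb for 6 domains, with replicate 1 in blue, replicate 2 in orange, the domain shaded and the 5-fold threshold dotted. The *Cd4* domain has 4 summits and stays at or above 9.40-fold throughout in replicate 1, the *Il13* and *Zfpm1* domains have 2 summits each, and many bins around the *Hjurp* and *Trpm8* domain also lie above the threshold, with a dip to near 0 before it.

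Of the highest domains, the one in *Rbpj* (chr5:53565601-53567600), which encodes the DNA-binding partner of Notch, had 1168 and 791 reads over 2000 bp, 36.6-fold and 40.4-fold, and held 10 WGATAR. The *Ikzf3* domain, in a gene for a lymphoid zinc finger factor, followed with 841 and 549 reads. Further ones lay 201311 bp and 328711 bp upstream of *Satb1*, a chromatin organiser of T cells, both in the non-coding gene *Gm19585*, at 30.6-fold and 32.8-fold for the nearer and 31.5-fold and 41.4-fold for the farther. Others lay 46926 bp downstream of the start site of *Ets2* (31.2-fold and 31.1-fold), in *Kbtbd11* (31.0-fold and 37.3-fold) and in *Tiam1* (30.3-fold and 34.5-fold). With the one in *Crybb1*, these 8 domains had between 1 and 13 WGATAR each.

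Genes were read against the annotation as a whole. Of 20780 protein-coding genes on chromosomes 1 to 19, 300 (1.44%) had a domain in the body, 56 (0.269%) had a start site in a domain, and 436 (2.1%) were linked to a domain, either through the body or as the nearest protein-coding start site within 50 kb. Genes with a domain in the body had a median length of 73.5 kb, against 17.6 kb over all protein-coding genes, and the share is not adjusted for length. The gene lists below were chosen with earlier results of these data known, and their counts are descriptions. Each count stands beside the 2.1% of all protein-coding genes that were linked, and is likewise not adjusted for gene length.

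Of 24 genes of the TH2 programme, 5 were linked, namely *Il4*, *Il13*, *Csf2*, *Ccr4* and *Pparg*. *Il13*, the effector cytokine of allergic inflammation, held a domain of 3400 bp (chr11:53633601-53637000) with 1299 and 803 reads, 23.95-fold and 24.15-fold. It reached 2298 bp upstream and 1101 bp downstream of the start site, with its highest bin centred at -1599 bp from the start, and its 2 summits each held WGATAR. *Il4*, the cytokine that starts and sustains TH2 differentiation, held a domain of 1800 bp (chr11:53616801-53618600) with 798 and 468 reads, 27.8-fold and 26.6-fold. It reached 1262 bp upstream and 537 bp downstream of the start site used for this gene, at position 53617338, which lies inside the gene model. The 5′ end of the longest transcript, at 53618669, lay just outside the domain. A second domain of 2200 bp within *Il4*, 10538 bp downstream of the start site (chr11:53604601-53606800) was lower, with 464 and 243 reads, 13.2-fold and 11.3-fold, and 36.9% of it was repeat-masked. The 3 domains lay within 32.4 kb. *Csf2*, which encodes GM-CSF, was linked to a domain 22067 bp from its start site (412 and 262 reads, 16.1-fold and 16.7-fold), and *Ccr4*, a chemokine receptor of TH2 cells, to one at 43038 bp (708 and 450 reads, 24.7-fold and 25.6-fold). *Pparg*, a nuclear receptor, held 2 domains in introns, at 15.7-fold and 14.3-fold and at 11.6-fold and 8.24-fold. The other 19 genes, *Gata3*, *Il5*, *Rad50*, *Il10*, *Il4ra*, *Stat6* and *Maf* among them, were not linked, which does not show that they lacked shorter runs or more distant domains. *Gata3* had the nearest start site to a domain of 2400 bp at 312200 bp (729 and 452 reads, 19.04-fold and 19.26-fold), and *Maf* to one at 514896 bp (20.29-fold and 20.07-fold), both beyond the 50 kb allowed for a link.

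Of the T cell identity genes 12 of 26 were linked. *Cd4*, *Zap70* and *Lef1* were among those with a start site in a domain. At *Zap70*, the kinase that binds the activated receptor, the domain ended 2 bp inside the gene and had 513 and 319 reads, 17.9-fold and 18.1-fold. *Lef1*, a transcription factor of the Wnt pathway, had 562 and 290 reads, 16.01-fold and 13.48-fold. The start site used for *Lef1*, at 131112797, lay inside the gene model, whose 5′ end at 131110471 lay outside the domain. *Ikzf1*, which encodes Ikaros, held 3 domains in introns over 31.4 kb, of 2600, 2200 and 1800 bp, with mean heights of 20.1-fold, 13.9-fold and 21.59-fold in replicate 1 and 22.8-fold, 12.9-fold and 20.96-fold in replicate 2. *Ets1* held 2 in introns, at 19.7-fold and 21.3-fold and at 15.9-fold and 15.2-fold. *Cd3e*, a chain of the T cell receptor complex, was linked to a domain 13188 bp upstream of its start (673 and 415 reads, 23.4-fold and 23.6-fold). *Cd5*, *Ptprc*, *Tcf7*, *Runx1* and *Myb* were linked to 1 domain each, between 12.7-fold and 22.2-fold in either replicate.

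Among AP-1 factors and their partners 5 of 18 were linked. *Nfkb1*, an NF-κB subunit, held a domain of 3000 bp that began 946 bp downstream of its start (959 and 566 reads, 20.04-fold and 19.29-fold), and *Bach2* (23.1-fold and 22.9-fold) and *Atf3* (23.2-fold and 26.8-fold) each held 1. *Fos* and *Irf4* were linked to domains at 28690 bp and 45975 bp. In the cytokine signalling list 5 of 19 genes on these chromosomes were linked. *Il2ra*, which encodes the IL-2 receptor chain CD25, held 4 domains over 50.4 kb, 1 of them over its start site, all below the median height of the domains, between 9.59-fold and 13.7-fold in replicate 1 and between 8.56-fold and 13.7-fold in replicate 2. *Il2rb* (794 and 626 reads, 20.7-fold and 26.7-fold) and *Cish* (902 and 616 reads, 23.6-fold and 26.3-fold), a feedback inhibitor of STAT5 signalling, each had a domain of 2400 bp over the start site. *Jak1* and *Jak2* were linked to 1 each. Of 31 activation and checkpoint genes 6 were linked, namely *Pdcd1*, *Cd69*, *Tnfrsf4*, *Zfp36l2*, *Bcl2* and *Bcl2l1*. Of 5 integrin and adhesion genes that the study deals with, *Itgav* and *Itgb3* included, 0 were linked, against 2.1% of all protein-coding genes. The paper reports from its Gata3 ChIP-seq that Gata3 bound at the *Itgav* promoter and inside *Itgb3*. A domain needs 1600 bp, so the missing link does not show that these genes lacked shorter runs or more distant domains. In the other lists *Satb1*, *Fosl2*, *Socs1*, *Tnfaip3* and *Cd44* also had the nearest start site to a domain, but from over 50 kb away.

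Cell type markers were read only as genes with or without a domain. Of 5 markers of CD4 T cells 2 were linked, *Cd4* and *Cd3e*, whereas *Cd28*, *Lck* and *Thy1* were not. No marker of TH1 cells (0 of 4), Treg cells (0 of 1), TH17 cells (0 of 3), CD8 T cells (0 of 2), B cells (0 of 5), myeloid cells (0 of 5) or NK cells (0 of 2) on these chromosomes was linked. Over all protein-coding genes 2.1% were linked, so lists as short as these would be expected to hold no linked gene, and nothing about the cell type was read from these counts.

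Places of the domains were as follows. A protein-coding start site lay in 52 of 531 (9.79%, 95% exact binomial interval 7.4 to 12.6, which like all such intervals here covers counting error only), 275 (51.8%) lay within a protein-coding gene without a start site, and 204 (38.4%) lay outside protein-coding genes. For the shares within and outside genes no share of all runs or of the genome is given here, so nothing was read from them. Among the 35064 shorter runs 2.65% held a protein-coding start site (2.48 to 2.82), and the share was 1.29% at 200 bp, 8.93% at 1400 bp (6.59 to 11.8), 6.78% at 1600 bp (3.92 to 10.8) and 14.5% above 2000 bp. The runs just outside the threshold thus had a share near that of all domains. A longer run has more room for a start site, and this was not adjusted for. Domains with a start site differed in sequence from the 479 without, with a median of 31.2 CpG per kb against 10.0, a GC content of 51.5% against 44.2%, and 2.14 WGATAR per kb against 2.78. Median heights were 19.1-fold and 17.8-fold against 17.5-fold and 17.3-fold in replicates 1 and 2. The start-site domains ran a median of 856 bp upstream and 1114 bp downstream of the start, and the highest bin by the mean of both replicates was centred within 300 bp of it in 30 of 57 pairs of gene and domain. Besides the genes of the lists, they included *Tnf*, *Irf9*, *Crem*, *Btla*, *Rasgrp1*, *Tespa1* and *Slc7a1*. For *Crem* the start site used, at 3281769, lay inside the gene model, whose 5′ end at 3337748 lay outside the domain. Where a domain held no start site, the nearest protein-coding one lay at a median of 28.1 kb, and for 81 domains it lay over 100 kb away.

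Within the domains reads were uneven. The coefficient of variation of reads per bin had a median of 0.584 in replicate 1 and 0.555 in replicate 2, against 0.133 and 0.172 for counting error alone. Of the 530 domains that were not mostly repeat-masked, 465 (87.7%) had 1 summit, 61 had 2, 3 had 3 and 1 had 4, where summits were counted as separate if the reads between them dropped to 50% of the lower in both replicates. The highest bin, here by the mean of both replicates, lay in the middle 50% of the domain in 456 (86.0%) and was the first or last bin in 2. A domain ends where bins fail the threshold, so a highest bin away from the ends follows in part from the rule. In 11 domains the variation was under 1.5 times that of counting error in both replicates, and 8 of these 11 had reads of lower mapping quality.

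WGATAR was found in 528 of the 530 domains (99.6%, 98.6 to 100). It was also found in 97.9% of runs of 1200 bp and in 97.6% of runs of 1400 bp. A longer stretch has more room for a match, so this share was not particular to domains. The median was 5 per domain and 2.78 per kb, against 2.19 per kb in flanks of the same length 2 kb to either side. The density exceeded that of the own flanks in 335 domains and was lower in 153. Pooled over all domains it was 3.4 per kb, against 2.62 per kb over chromosomes 1 to 19 and 4.26 per kb over the shorter runs. Runs of 200 and 400 bp held 5.25 and 4.91 per kb, those of 1200 and 1400 bp 3.15 and 3.36 per kb, and domains of 1600 and 1800 bp 3.10 and 3.95 per kb. Of 3432 WGATAR in domains 24% were repeat-masked, and 552 lay in only 16 domains with 20 or more each (described further on). These few domains raise the pooled density. The 2 domains without any lay 79536 bp upstream of *Cd44* (647 and 478 reads, 25.4-fold and 30.6-fold) and in *Abr* (374 and 242 reads, 14.7-fold and 15.5-fold), and the former held 1 AP-1 motif.

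The sequence and the reads met in the highest bin. WGATAR lay in 387 of 530 highest bins (73.0%, 69.0 to 76.8), in 40.5% of the other bins of the domains (39.0 to 41.9), in 34.2% of flank bins (33.3 to 35.1) and in 38.0% of all bins of chromosomes 1 to 19. Among the 15206 runs of a single bin the share was 61.4%, counting only matches wholly inside the bin. A high share was thus not particular to domains. In 368 of 528 domains (69.7%) that had bins of both kinds, those with WGATAR held more reads on average than those without in both replicates, and in 96 they held fewer in both. The medians were 19.7-fold against 15.1-fold in replicate 1 and 18.6-fold against 15.6-fold in replicate 2. TGASTCA, that is TGACTCA or TGAGTCA, is the sequence recognised by AP-1, the Fos and Jun family of activation-induced factors. Neither motif contains the other, although adjacent matches can share end letters. TGASTCA was also most frequent in the highest bins, with 17.2% of highest bins (14.1 to 20.7), 7.1% of other bins (6.37 to 7.89), 3.85% of flank bins (3.49 to 4.25) and 3.24% of all bins. At least 1 TGASTCA lay in 294 domains (55.5%, 51.1 to 59.8). Its pooled density was 0.429 per kb in the 531 domains and 0.460 per kb in the shorter runs, against 0.166 per kb over chromosomes 1 to 19. TGASTCA was thus not particular to domains among the runs. A match is a description of the sequence and not a bound site.

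**Figure D3:**
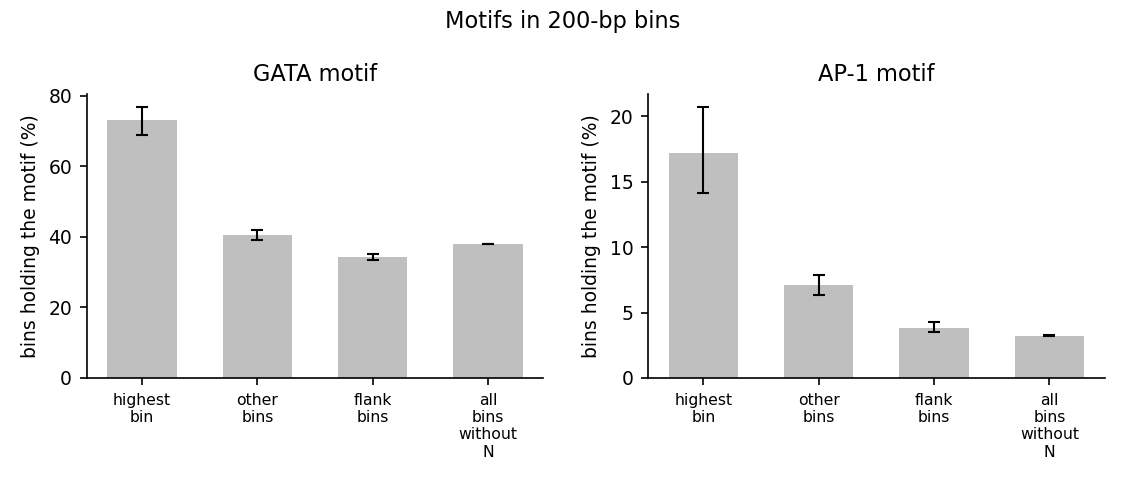
Share of 200-bp bins (%) that hold the GATA motif WGATAR (left) or the AP-1 motif TGASTCA (right), with 95% exact binomial intervals, for the highest bin of each domain, its other bins, flank bins and all bins without N of chromosomes 1 to 19. Both shares are highest in the highest bin, at 73.0% and 17.2%.

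Repeats were scarcer in the domains than around them. The median repeat-masked share was 13.6%, against 22.1% in the flanks and 33.5% over chromosomes 1 to 19, and it was lower than in the own flanks in 413 domains and higher in 117. It was over 25% in 51 of the 531 domains. Pooled over their bases, the repeat-masked share was 14.4% in the shorter runs and 14.6% in domains of 1600 bp. A low share was thus not particular to domains among the runs. Reads without a unique position had been removed before deposit, and the part of this in the low share was not tested. The 1 mostly repeat-masked domain (chr14:19415601-19419800) was masked over 83.8% of its bases and lay at the gene model *Gm21738*. Its 4200 bp held 1368 and 777 reads, 20.4-fold and 18.9-fold, with only 4 WGATAR, and 98.0% and 98.2% of these reads had a mapping quality score under 44. Its edges were abrupt, with 0 reads in the bins just outside in both replicates, against 48 and 25 reads in its first bin and 56 and 31 in its last, and the median of the bins around it was 0 reads in both replicates.

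Some domains stood apart by the mapping quality of their reads, a score of the aligner that was 22 to 44 in the files. In the median domain 0.333% and 0.427% of the reads of replicates 1 and 2 were under 44. In 14 domains the share was at least 5% in both replicates, from 6.77% and 5.80% upwards, and in no other domain was it above 2.58% and 4.32%. These 14 were the repeat-masked domain, 3 at *Sfi1* and *Drg1*, 1 on chromosome 17 and 9 in a single block on chromosome 1, and 7 of the 20 domains of 3000 bp or more were among them. Leaving all 14 out changed neither the longest domain nor the median of 2.78 WGATAR per kb, and the share with a start site was then 9.28%.

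On chromosome 1, the 9 domains lay in a block of 66.6 kb (chr1:88212401-88279000) over the *Ugt1a* gene cluster of glucuronosyltransferases, *Mroh2a*, *Hjurp* and *Trpm8*. The longest, at the start of *Hjurp* and in *Trpm8*, had 4200 bp with 820 and 523 reads, 12.2-fold and 12.7-fold, and the others were 6.90-fold to 9.05-fold in replicate 1 and 6.65-fold to 8.32-fold in replicate 2. The whole neighbourhood was raised, and each 10-kb window from 88210001 to 88310000 stood 4.05-fold to 7.44-fold over the mean in replicate 1 and 3.76-fold to 7.96-fold in replicate 2. The next windows were at 1.27-fold and 1.23-fold before it and 1.80-fold and 1.73-fold after it. Of the 5 domains with the most even bins 4 lay here, while the longest of the block had a highest bin of 31.0-fold and 28.6-fold. The share under score 44 ran from 6.77% to 20.9% in replicate 1 and from 5.80% to 26.2% in replicate 2. WGATAR numbered 1 to 9 per domain. Over the 100-kb mean none of the 8 domains with raised surroundings was called. The part of the raised surroundings and of the lower mapping quality in these domains was not tested.

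The domains at *Sfi1* and *Drg1*, of 5000, 4000 and 2000 bp within 13 kb (chr11:3184201-3197200), had 1542, 1638 and 688 reads in replicate 1 and 921, 920 and 429 in replicate 2, 19.3-fold, 25.7-fold and 21.6-fold and 18.8-fold, 23.5-fold and 21.9-fold. *Sfi1* encodes a centrosomal protein. All 3 lay in the gene model of *Drg1*, and the first and the second also held *Sfi1*. Between 13.4% and 15.4% of the reads of replicate 1 and between 12.8% and 15.8% of replicate 2 were under score 44. Reads were absent from most of the bins around the first of them, the median being 0 in both replicates. The highest domain by its lower replicate lay on chromosome 17 (chr17:39843001-39846800), with 3320 and 1585 reads over 3800 bp, 54.8-fold and 42.7-fold. It lay in the non-coding genes *Gm26917* and *CT010467.1* and held 4 WGATAR, and 19.3% and 17.3% of its reads were under score 44. Its GC content of 67.8% and its 107.9 CpG per kb were the highest of the 530 domains that were not mostly repeat-masked. The median of the bins around it was again 0, although a second, shorter stretch of bins far above the threshold in both replicates lay beside it. From reads of score 44 alone, domains were called again at 8 of the 14 places. The part of mapping in the height of these domains was not tested.

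Across the 531 domains the log2 heights had a Pearson correlation of 0.893, a description over regions that were chosen for being high in both. The ratio of replicate 2 to replicate 1, scaled by reads, had a median of 1.01 (range 0.572 to 1.62), and 519 domains were within 1.5 times. Its 95% interval lay above 1 in 122 domains and below 1 in 96. By place, the median ratio was 0.94 in start-site domains, 0.993 within genes and 1.04 outside, and these differences were not tested. The lowest ratios were 0.572 in *Psmc2* (302 and 106 reads), 0.606 in *Raly* (463 and 172 reads) and 0.636 in *Hormad2* (531 and 207 reads). The highest were 1.62 in *Cytip* (227 and 226 reads), 1.60 in *Igfbp7* (233 and 228 reads) and 1.59 in *Mir155hg*, the host gene of miR-155 (369 and 359 reads). The libraries were read on different instruments according to their read names, and a replicate and an instrument cannot be told apart.

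**Figure D4:**
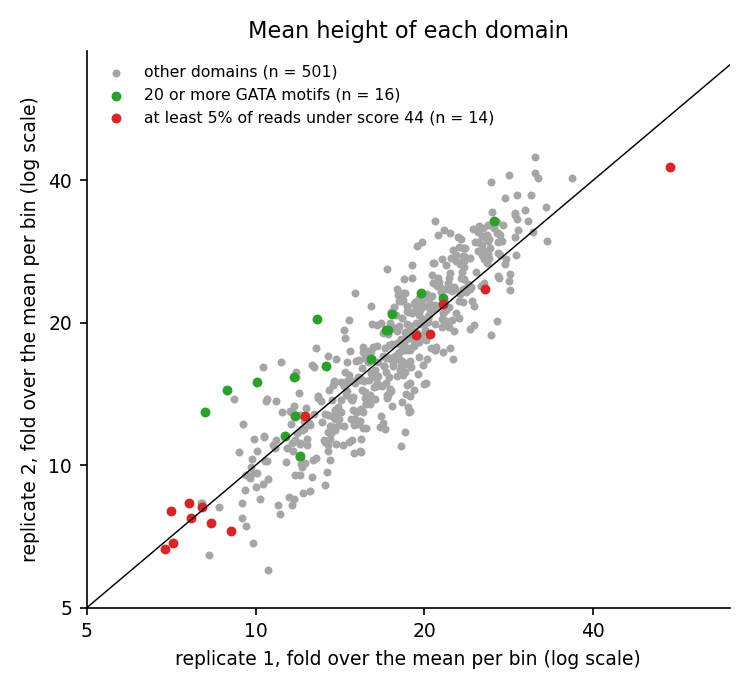
Mean height of each of the 531 domains in replicate 2 against replicate 1, as fold over the mean per bin on log axes, with the line of equal height. The 14 domains with at least 5% of reads under score 44 (red) include the highest domain of replicate 1 and a group at the lower end, and the 16 domains with 20 or more GATA motifs (green) lie mostly above the line.

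All 3 domains with the highest ratios had 20 or more WGATAR. Such numbers occurred in 16 of the 530 domains, with 552 WGATAR in all, of which 79.7% were repeat-masked, and 15 of the 16 held a tandem array of GATA, or of its reverse complement TATC, of 40 bases or more. Their ratio of replicate 2 to replicate 1 had a median of 1.18 and exceeded 1 in 15 of 16, whereas in the 514 other domains the median was 1 and 49.8% exceeded 1. The cut of 20 WGATAR was not part of the plan, and the *Cytip* domain, with the highest ratio, had exactly 20. The comparison is a description only. The arrays of 2 of them are shown with 20 bases to either side, in capitals, because they carry most of the WGATAR of their domains.
*Bod1*, chr11:31671150-31671321 (GRCm38, plus strand): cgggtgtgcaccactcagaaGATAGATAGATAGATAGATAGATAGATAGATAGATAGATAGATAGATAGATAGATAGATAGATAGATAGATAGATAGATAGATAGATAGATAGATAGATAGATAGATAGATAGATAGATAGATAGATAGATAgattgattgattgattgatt
*Gramd1b*, chr9:40448120-40448231 (GRCm38, plus strand): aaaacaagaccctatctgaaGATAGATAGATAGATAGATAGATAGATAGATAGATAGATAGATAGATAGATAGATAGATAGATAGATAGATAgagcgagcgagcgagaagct
The domain over the start of *Bod1* (chr11:31670601-31672400), with 132 bases the longest array, held 384 and 285 reads, 13.4-fold and 16.2-fold, and all 43 of its WGATAR were masked. In *Gramd1b* (chr9:40448001-40450600) the array had 72 bases, and the domain was 11.7-fold and 15.4-fold high with 23 WGATAR. The most WGATAR, 65 with 60 masked, lay in a domain 148363 bp from *Chd7* (321 and 293 reads, 10.06-fold and 14.98-fold, ratio 1.49). Next came 57 in *Igfbp7* (8.114-fold and 12.95-fold) and 52 in a domain 97939 bp upstream of *Ubash3b* (16.04-fold and 16.73-fold). In *Bod1*, *Igfbp7* and *Gramd1b* the highest bin held 0 WGATAR. Why the ratio was higher in these domains was not tested.

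**Figure D5:**
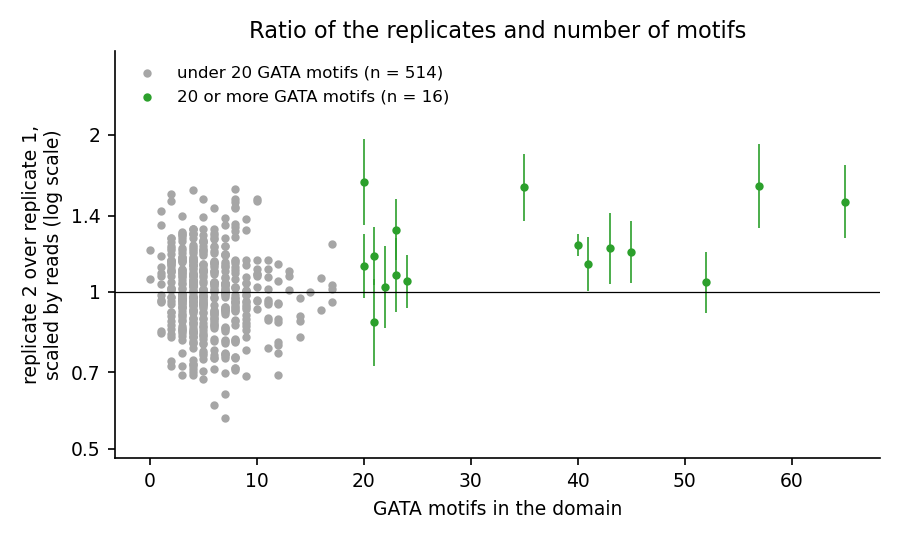
Ratio of replicate 2 to replicate 1, scaled by reads (log scale), against the number of GATA motifs for the 530 domains not mostly repeat-masked. Domains with 20 or more motifs are green with their 95% intervals, and 15 of these 16 lie above 1, while the others scatter on both sides.

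Domains lay near each other in places. Within 50 kb of another domain lay 109 of the 531, and joined at this distance they formed 27 pairs, 10 groups of 3, 4 groups of 4 and the group of 9 on chromosome 1. The groups of 4 were at *Tnfsf8*, a ligand of the TNF family (90.6 kb), near *Dad1* (25 kb), at *Il2ra* (50.4 kb) and at *Fli1*, an ETS factor (43.6 kb). Groups of 3 included those of *Il4* and *Il13*, of *Ikzf1*, and of *Ets1* over 61.0 kb. Their number per 10 Mb ran from 0.992 on chromosome 18 to 3.52 on chromosome 11, and mean reads per bin were 0.988 and 1.18 times the overall mean on these chromosomes in replicate 1.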

How the data were processed

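Per the labels and the paper's methods, the authors aligned single reads of 50 bp to GRCm38 with Bowtie2 (version 2.3.5.1) and removed reads without a unique position. The processing notes also name MACS2 (version 2.1.2), with no role. The deposited files give for each read its position, its strand and a mapping quality score of 22 to 44, with no normalization, and 0 reads share a 5′ end and strand, so duplicates had been removed. This limits how high a bin can rise. Read counts per 200-bp bin were computed here from all deposited reads. Intervals are 95% exact binomial intervals, for medians from order statistics and for ratios conditional on the sum of reads, and cover counting error only. Genes were taken from GENCODE M21, and sequence and repeat masking from RefSeq GRCm38.p6. Precision rests on the depths given in the report.

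The domains named are the 10 longest, the 10 highest, those with most or no WGATAR, the mostly repeat-masked one, with the greatest difference between replicates, the sharpest edges or the most even bins, and those linked to listed genes. Some domains that meet this rule are not reported here. The other domains on chromosomes 1 and 11 with low scores, *Epm2aip1*, *Mbnl1*, *Gramd1b*, *Il4* among the sequences, groups of domains, and start-site genes outside the lists were named after their values were seen. The members and lists were chosen with earlier results of these data known. Calling was tried on simulated reads with planted domains of even height on an even background. The deposited reads were less even, so nothing about the domains was read from this trial. Alternatives concerned the threshold, bins, read shift, score, background, gaps, length, depth and each replicate alone. Leaving out domains with low scores and using score 44 only were added after the data were seen. Python 3.11.15, NumPy 2.4.6, SciPy 1.17.1, pandas 2.3.3 and Matplotlib 3.10.9 were used.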

Additional observations from a re-analysis of the deposited data

Results flagged for a closer look

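Chromosomes X and Y lay outside the rule. With the means of chromosomes 1 to 19, 6 domains were found there, all on X, of 1600 to 2200 bp. The highest was near *Rtl5* (23.0-fold and 26.9-fold), and others were nearest to *Diaph2*, *Tmsb4x*, *Gpm6b* and *Sh3kbp1*, between 13.7-fold and 17.6-fold in replicate 1 and between 9.01-fold and 20.5-fold in replicate 2. They were flagged because the report does not use these chromosomes.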

How the results depend on the processing

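The number of domains was 1069 at 4-fold, 170 at 7-fold, 273 with bins of 100 bp, 1174 with bins of 400 bp, 251 over the mean of bins with a read, 44 over the higher of the mean and the 100-kb mean, 2076 from 1200 bp and 175 from 2000 bp, and 860 to 1425 with 1 replicate left out, against 531. It was within 1.5 times under the other 8 of 18 alternatives. The longest domain had 4200 bp over the 100-kb mean (the repeat-masked domain) and 9000 to 9400 bp with 1 replicate left out. The share holding a protein-coding start site was 14.1% at 7-fold, 12.7% over the mean of bins with a read, 18.2% over the 100-kb mean, 13.1% from 2000 bp and 15.8% for start sites of all genes, each above the interval of 7.4 to 12.6. The median WGATAR per kb was 3.12 over the 100-kb mean, and AGATAA alone had 1.11. Mostly repeat-masked domains numbered 2 at 4-fold, 0 with a score of at least 30 or of 44 only, 2 to 3 with 1 replicate left out, and 51 if over 25% of bases sufficed. With replicate 1 thinned to the depth of replicate 2, 510 domains were found. No paired analysis was possible because both libraries belong to the same condition. The causes were not tested.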
